A study of Mus musculus with 9 samples.

Results

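The genes described here were 40 antiviral interferon-stimulated genes, named one by one and matched to the deposited count table by their mouse Ensembl identifiers, under the current or an older name. All 40 were found among the 22001 genes of the table, and all 40 passed the filter on low counts that left 11469 genes for testing. The study measured messenger RNA by RNA sequencing in bone marrow-derived macrophages of C57BL6 mice, in 3 groups of 3 libraries collected at 6 h. The libraries A2plus, B2plus and C2plus were described as Pam3CSK4 with 3SL, the milk sugar 3'-sialyllactose, the libraries D1, D2 and D3 as Pam3CSK4, a synthetic lipopeptide that activates the receptor pair TLR1 and TLR2, and the libraries A2, B2 and C2 as untreated cells given PBS. Pam3CSK4 was stated at 100 µg/ml, and 3SL at 100 µl/ml, a volume that gives no amount of the sugar. The titles of the 3SL-labelled libraries write Pamc4 and their treatment tag writes Pamc4-CSL, so the groups are called by the descriptions, as 3SL-labelled, Pam3CSK4-labelled and untreated-labelled. The 3SL-labelled against the Pam3CSK4-labelled libraries address what the sugar changes in cells given the lipopeptide, and the Pam3CSK4-labelled against the untreated-labelled ones address what the lipopeptide changes alone.

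2 genes that macrophages induce through TLR2 stood against these labels. Il1b, which encodes interleukin-1 beta, averaged 8136 ± 565 CPM in the 3SL-labelled, 6.23 ± 1.68 CPM in the Pam3CSK4-labelled and 10160 ± 457 CPM in the untreated-labelled libraries (SD, n = 3 each). Tnf, a rapidly induced inflammatory cytokine, averaged 1267 ± 58.2, 18.4 ± 0.670 and 1704 ± 46.0 CPM in the same order of groups (SD, n = 3 each). Both inflammatory genes were therefore lowest in the libraries labelled with the lipopeptide alone and high in those labelled untreated, so every direction below is that of the libraries as labelled, and whether the labels of 2 groups were exchanged was not tested. Total counts ran between 7472482 and 43980309 per library, with B2 the deepest, and 3 counts stood for 0.0746 to 0.422 CPM, the counts per 1000000 of the scaled library size. Nothing in the labels states whether same-group libraries are separate cultures or animals, and the p-values therefore cover only the spread between these libraries, which may be technical. All 3 Pam3CSK4-labelled codes begin with D and no other code does, so anything particular to D cannot be told apart from that group. The 8 macrophage markers summed to 21190 to 21770 CPM in the 3SL-labelled, 16060 to 16510 CPM in the Pam3CSK4-labelled and 21790 to 22260 CPM in the untreated-labelled libraries. In bulk RNA, fewer cells of a type and less RNA per cell cannot be told apart.

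Type I interferons are secreted by cells that sense viral or bacterial products and bind a receptor made of IFNAR1 and IFNAR2. The kinases JAK1 and TYK2 then activate a transcription factor complex that contains IRF9 and binds the interferon-stimulated response element, a promoter motif of repeated GAAA bases, to switch on the genes described here. Their products sense foreign nucleic acid, degrade it or stop its translation, hold back virus particles and tune the signal, and macrophages express many of them at low levels even without infection.

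Several of the 40 genes lie side by side in the genome. In GENCODE release M21 on the mouse build GRCm38, Ifit1, Ifit2 and Ifit3 lie on chromosome 19 on the same strand, with 7111 bases between Ifit2 and Ifit3. Oas1a, Oas2 and Oas3 lie on chromosome 5, as do Oasl1 and Oasl2, whose gap is 11005 bases. Rsad2 and Cmpk2 lie head to head on chromosome 12 with 12751 bases between them, and Mx1 and Mx2 lie on chromosome 16 on opposite strands. Dtx3l and Parp9, also on chromosome 16, are read from opposite strands and share 458 bases of exon, and Parp14 lies 54966 bases from Dtx3l.

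Promoter sequence was at hand for 30 of the 40 genes, as RefSeq windows on GRCm38.p6 that run from 250 bases before to 50 bases after the start of the gene. Adar and Isg20 had 3 windows each and Ifit2 and Sp100 had 2 each, and a gene was counted once if any of its windows held a match. Dhx58, Zbp1, Ifi204, Oas2, Mx1, Mx2, Usp18, Parp9, Parp14 and Rtp4 were not searched. The core of the interferon-stimulated response element, searched on both strands as 2 copies of GAAA with any 2 bases between them, was found for 12 of the 30 genes (40%), against 1079 of all 27025 genes with a window (3.99%). The 12 were Ifih1, Ddx58, Ddx60, Oas1a, Oas3, Ifit1, Ifit3, Eif2ak2, Rsad2, Bst2, Ifitm3 and Isg15. The windows of the genes with the extreme changes below are printed 5′ to 3′ on the strand of the gene, with bases inside a match of the core in capitals. Ifit1 had the largest differences from the Pam3CSK4-labelled libraries, Isg15 had the largest between the 3SL-labelled and untreated-labelled ones, Rsad2 and Cmpk2 are the head-to-head pair, Trim25 had the smallest differences from the Pam3CSK4-labelled libraries, and Ifitm3 had the smallest between the 3SL-labelled and untreated-labelled ones.
Ifit1, chr19:34640639-34640938, plus strand: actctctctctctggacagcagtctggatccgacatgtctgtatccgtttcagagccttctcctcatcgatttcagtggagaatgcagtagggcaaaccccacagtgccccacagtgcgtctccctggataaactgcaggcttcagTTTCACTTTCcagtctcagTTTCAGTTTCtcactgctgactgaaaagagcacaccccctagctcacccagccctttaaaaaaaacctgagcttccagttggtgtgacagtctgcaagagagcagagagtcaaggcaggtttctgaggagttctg
Isg15, chr4:156200769-156201068, minus strand: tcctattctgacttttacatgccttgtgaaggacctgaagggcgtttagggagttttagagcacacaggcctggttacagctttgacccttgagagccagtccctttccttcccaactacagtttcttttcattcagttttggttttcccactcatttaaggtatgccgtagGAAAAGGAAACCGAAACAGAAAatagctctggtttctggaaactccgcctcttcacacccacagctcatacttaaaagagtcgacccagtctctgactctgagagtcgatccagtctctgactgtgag
Rsad2, chr12:26456403-26456702, minus strand: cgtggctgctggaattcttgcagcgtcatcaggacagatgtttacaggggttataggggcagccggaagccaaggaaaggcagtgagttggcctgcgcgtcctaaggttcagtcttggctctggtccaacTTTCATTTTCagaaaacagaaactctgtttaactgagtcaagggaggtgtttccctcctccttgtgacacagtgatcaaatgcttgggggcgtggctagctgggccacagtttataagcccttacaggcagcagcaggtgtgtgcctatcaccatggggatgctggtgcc
Cmpk2, chr12:26468965-26469264, plus strand: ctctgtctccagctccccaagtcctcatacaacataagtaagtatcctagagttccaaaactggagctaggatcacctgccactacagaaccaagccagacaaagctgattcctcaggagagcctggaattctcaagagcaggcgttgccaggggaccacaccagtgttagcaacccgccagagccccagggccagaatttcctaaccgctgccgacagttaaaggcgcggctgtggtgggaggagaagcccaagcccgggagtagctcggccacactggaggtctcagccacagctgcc
Trim25, chr11:88999153-88999452, plus strand: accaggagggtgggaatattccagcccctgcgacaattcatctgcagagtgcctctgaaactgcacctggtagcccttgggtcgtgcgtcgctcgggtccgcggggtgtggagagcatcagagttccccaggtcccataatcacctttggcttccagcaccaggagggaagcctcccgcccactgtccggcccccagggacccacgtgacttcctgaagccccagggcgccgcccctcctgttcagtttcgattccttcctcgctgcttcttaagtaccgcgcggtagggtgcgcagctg
Ifitm3, chr7:141010695-141010994, minus strand: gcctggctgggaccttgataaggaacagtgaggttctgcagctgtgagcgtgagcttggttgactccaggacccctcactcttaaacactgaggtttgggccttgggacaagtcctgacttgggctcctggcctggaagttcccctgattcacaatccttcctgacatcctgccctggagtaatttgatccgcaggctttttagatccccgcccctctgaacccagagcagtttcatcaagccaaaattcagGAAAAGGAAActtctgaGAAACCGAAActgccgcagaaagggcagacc

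Ifit1 held 2 matches, both on the opposite strand, so that they read TTTCACTTTC and TTTCAGTTTC here. With the start base counted as 1 and the base before it as -1, they spanned positions -104 to -95 and -85 to -76. Isg15 held 3 overlapping matches in a row, between positions -78 and -57, which gives the single capital stretch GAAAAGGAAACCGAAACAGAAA. Rsad2 held 1 match, at -120 to -111, and no match was found in the window of its neighbour Cmpk2 or in that of Trim25. The 2 matches of Ifitm3 lay after the start, at 3 to 12 and 20 to 29. A longer form of the core, with a C at its end, was found for 10 of the 30 genes (33.3%), against 255 of all genes with a window (0.944%). A core with 3 bases between the copies was found for 5 of 30 (16.7%), against 3.17% of all genes. TTCNNNGAA, the gamma-activated sequence of genes that respond to interferon-gamma, was found for 9 of 30 (30%), against 9.55% of all genes, and the κB motif for 8 of 30 (26.7%), also against 9.55%. Some of these matches overlap, since the first core and its longer form share their bases. The 250 bases before the start alone held the first core for 8 of 30 genes (26.7%), against 3.46% of all genes. These are matches of letters, and no binding was measured.

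**Figure D1:**
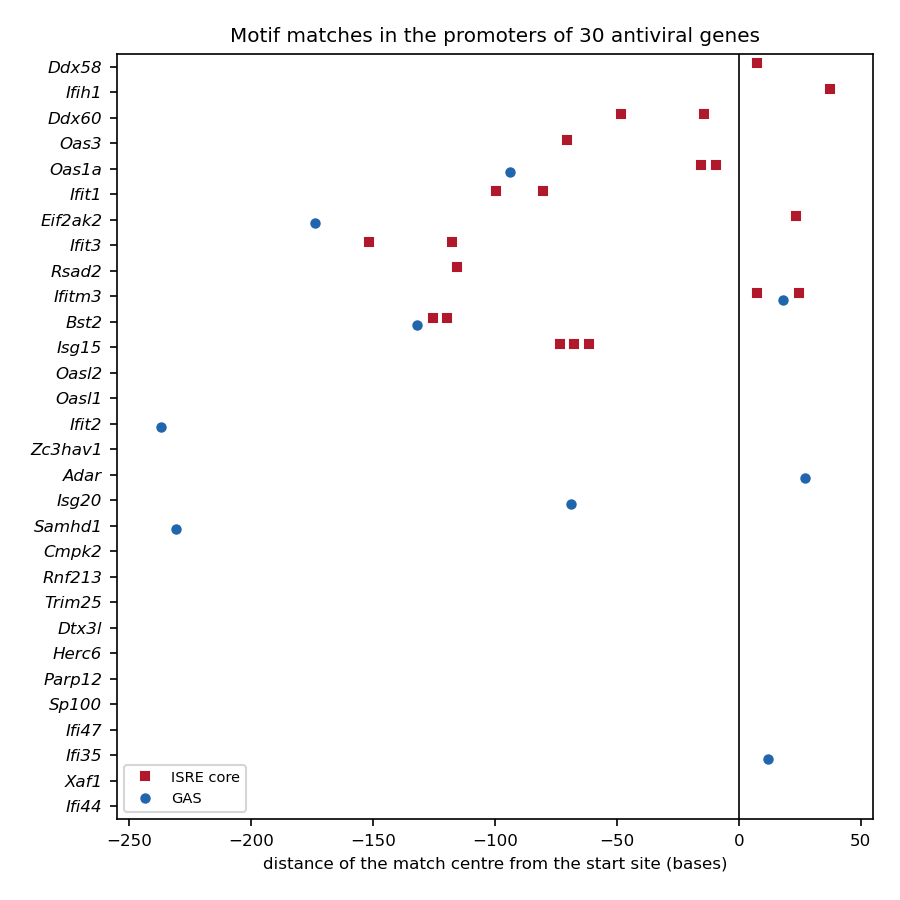
Positions of motif matches in the promoter windows of 30 genes, 1 gene per row, against the distance in bases from the start that each window belongs to. Adar, Isg20, Ifit2 and Sp100 had several windows, whose matches share a row. Squares mark the centres of matches of the response element core (ISRE core) and circles those of the gamma-activated sequence (GAS). The squares of Isg15 and Ifit1 sit before the start and those of Ifitm3 after it, and 12 of the 30 rows hold a square.

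The 40 genes moved together between the groups. In the Pam3CSK4-labelled libraries all 40 were lower than in the untreated-labelled ones (edgeR quasi-likelihood test, Benjamini-Hochberg adjustment over 11469 genes), where 35.9% of all tested genes were called lower and 39% higher. 35 of the 40 were at least 2-fold lower, against 10.8% of all tested genes, and for all 40 every Pam3CSK4-labelled library lay below every untreated-labelled one, against 36.5%. The median log2 fold change was -1.92 over the 40 and 0.03 over all tested genes. In the 3SL-labelled libraries all 40 were higher than in the Pam3CSK4-labelled ones, against 34.7% of all tested genes called higher and 36.8% lower, and 32 were at least 2-fold higher, against 10.5%. For all 40 every 3SL-labelled library lay above every Pam3CSK4-labelled one, against 35.5%, and the median log2 fold change was 1.57, against -0.02 over all tested genes. These comparisons share the Pam3CSK4-labelled libraries, so their values are not independent of each other. In the 3SL-labelled libraries 35 of the 40 were lower than in the untreated-labelled ones and none was higher, where 5.11% of all tested genes were called lower and 3.83% higher. DESeq2 also called none higher and 25 lower, against 306 higher and 496 lower of all 11469 tested genes. At an unadjusted p under 0.05 edgeR gave 0 higher and 39 lower, against 1162 higher and 1275 lower of all tested genes. None of those differences reached 2-fold, as 0.061% of all tested genes did downward and 0.113% upward, and the median log2 fold change was -0.33, against 0.00 over all tested genes. Over the 40 genes the log2 fold change ran between -4.21 and -0.52 for Pam3CSK4-labelled over untreated-labelled, between 0.37 and 3.62 for 3SL-labelled over Pam3CSK4-labelled and between -0.63 and -0.01 for 3SL-labelled over untreated-labelled libraries.

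**Figure D2:**
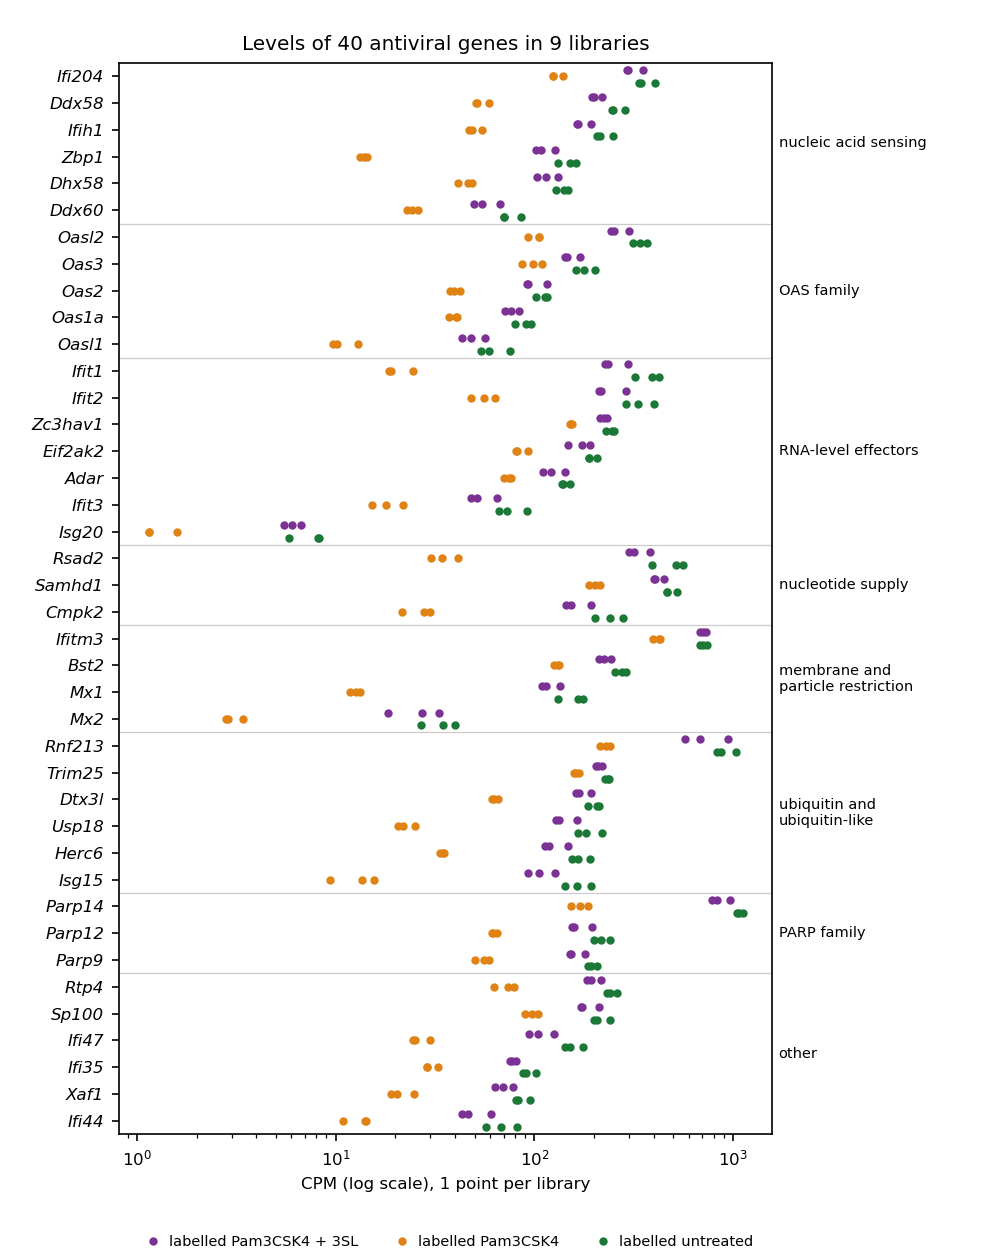
CPM of the 40 genes in each of the 9 libraries, on a log scale, ordered by role, with the 3SL-labelled, Pam3CSK4-labelled and untreated-labelled libraries as points of 3 colours. The Pam3CSK4-labelled points lie lowest for every gene, and the 3SL-labelled points overlap the untreated-labelled ones or lie just below them.

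Levels by library are given below in the order of the codes, A2plus to C2plus, D1 to D3 and A2 to C2, and ± beside a log2 fold change is its SE. The 6 nucleic acid sensors fell in the Pam3CSK4-labelled libraries by 1.49 to 3.43 on the log2 scale against the untreated-labelled ones. Zbp1, a sensor of left-handed nucleic acid that triggers cell death, stood at 102, 108 and 127 CPM in the 3SL-labelled, 13.9, 14.4 and 13.2 CPM in the Pam3CSK4-labelled and 151, 163 and 132 CPM in the untreated-labelled libraries. No groups overlapped, and the Pam3CSK4-labelled libraries were far below both others. Its log2 fold change was -3.43 ± 0.0831 for Pam3CSK4-labelled over untreated-labelled (edgeR adjusted p = 1.14e-23), 3.02 ± 0.0894 for 3SL-labelled over Pam3CSK4-labelled (adjusted p = 1.54e-21) and -0.42 ± 0.0646 for 3SL-labelled over untreated-labelled (adjusted p = 5.77e-05). Ddx58, which encodes the RNA sensor RIG-I, stood at 200.4, 195 and 219 CPM in the 3SL-labelled, 59.1, 51.5 and 51.0 CPM in the Pam3CSK4-labelled and 249.6, 285 and 245 CPM in the untreated-labelled libraries. Ifih1, which encodes MDA5, a sensor of long RNA duplexes, was at 164, 166 and 194 CPM, 54.5, 47.1 and 48.8 CPM and 214, 248 and 208 CPM in the same groups. Both RNA sensors were lower in every 3SL-labelled library than in every untreated-labelled one, with log2 differences of -0.35 ± 0.0537 for Ddx58 and -0.36 ± 0.0608 for Ifih1 (SE; edgeR adjusted p = 4.74e-05 and 0.00015). Ddx60, a helicase that aids RIG-I signalling, changed by -0.43 in that comparison (adjusted p = 0.000797). Dhx58, which encodes LGP2, the third RIG-I-like receptor, and Ifi204, a sensor of DNA, had smaller differences of -0.27 and -0.21, with libraries that overlapped (adjusted p = 0.00689 and 0.0248). Of the stretches of 50 bases in Ifi204 transcripts, 20% are shared with other genes, chiefly Ifi211, so its counts are uncertain.

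The OAS family is named for enzymes that make oligoadenylates, which switch on RNase L to degrade RNA. Oasl1, which in mice restrains translation of the factor IRF7, was the member of the family that differed most from the Pam3CSK4-labelled libraries, with 48.2, 43.5 and 56.4 CPM in the 3SL-labelled, 12.96, 9.70 and 10.2 CPM in the Pam3CSK4-labelled and 58.8, 75.2 and 54.0 CPM in the untreated-labelled libraries. C2plus lay above C2, the lowest untreated-labelled library, and the difference of -0.38 between 3SL-labelled and untreated-labelled libraries passed the test (edgeR adjusted p = 0.0123). Oasl2, its neighbour, stood at 251, 243 and 299 CPM in the 3SL-labelled, 106, 106 and 92.7 CPM in the Pam3CSK4-labelled and 339, 368 and 315 CPM in the untreated-labelled libraries, and its difference from the untreated-labelled group was -0.37 (adjusted p = 8.71e-05). Oas2, an oligoadenylate synthetase, did not pass the test between 3SL-labelled and untreated-labelled libraries, with 93.2, 91.5 and 116 CPM against 113, 116 and 102 CPM and a log2 difference of -0.15 (unadjusted 95% interval -0.28 to -0.01, adjusted p = 0.178). Oas1a and Oas3 passed it with differences of -0.22 and -0.25. Oas3 had the smallest change of the family in the Pam3CSK4-labelled libraries, -0.88 against the untreated-labelled ones, while Oas1a had -1.19 and Oas2 -1.48. In sequence, 57.6% of the stretches of 50 bases in Oas1a transcripts are shared with other genes, chiefly Oas1g, so its counts are uncertain.

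The Ifit genes encode proteins that bind foreign RNA and block its translation, and Ifit1 changed most of the 7 genes whose products act on RNA. Ifit1 (ENSMUSG00000034459, chr19:34640871-34650009) stood at 236, 227 and 295 CPM in the 3SL-labelled, 24.5, 19.1 and 18.6 CPM in the Pam3CSK4-labelled and 320.4, 424 and 390.3 CPM in the untreated-labelled libraries. The 3 groups were apart from each other, and the changes were the largest of the 40 genes on both sides of the Pam3CSK4-labelled libraries. It was 18.4-fold lower in the Pam3CSK4-labelled than in the untreated-labelled libraries (log2 -4.21 ± 0.104, edgeR adjusted p = 1.97e-23) and the 3SL-labelled libraries were 12.3-fold above the Pam3CSK4-labelled ones (log2 3.62 ± 0.108, adjusted p = 1.91e-21). Set against the untreated-labelled group, the 3SL-labelled libraries were 1.498-fold lower (adjusted p = 1.15e-05). Its neighbour Ifit2 stood at 217, 211 and 290.1 CPM in the 3SL-labelled, 63.3, 56.1 and 48.1 CPM in the Pam3CSK4-labelled and 288, 401 and 332 CPM in the untreated-labelled libraries, with C2plus inside the untreated-labelled range. Ifit3, the next gene, stood at 48.2, 51.6 and 64.8 CPM in the 3SL-labelled, 21.9, 17.97 and 15.2 CPM in the Pam3CSK4-labelled and 66.2, 91.8 and 72.4 CPM in the untreated-labelled libraries. The differences of Ifit2 and Ifit3 between 3SL-labelled and untreated-labelled libraries were -0.51 and -0.50 (edgeR adjusted p = 0.000445 and 0.00154), and DESeq2 called neither (adjusted p = 0.0763 and 0.115). Of the stretches of 50 bases in Ifit3 transcripts, 51.2% are shared with other genes, chiefly Ifit3b, so its level is uncertain.

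Eif2ak2, which encodes PKR, a kinase that stops translation on sensing RNA duplexes, and Adar, which edits adenosine in such duplexes, changed less. Eif2ak2 was at 173, 148 and 192 CPM in the 3SL-labelled, 92.5, 82.1 and 81.3 CPM in the Pam3CSK4-labelled and 188, 208 and 188 CPM in the untreated-labelled libraries. Their log2 differences between 3SL-labelled and untreated-labelled libraries were -0.20 for Eif2ak2 and -0.20 for Adar (edgeR adjusted p = 0.0439 and 0.034), both with overlapping libraries. Exons of Adar share 16.8% of their bases with Chrnb2 on the opposite strand. Zc3hav1, the zinc-finger protein ZAP that marks viral RNA for decay, was among the most level genes, at 225, 214 and 231 CPM in the 3SL-labelled, 154, 152 and 154 CPM in the Pam3CSK4-labelled and 228, 252 and 246 CPM in the untreated-labelled libraries. It fell by 0.66 on the log2 scale in the Pam3CSK4-labelled libraries against the untreated-labelled ones, and its difference of -0.12 between 3SL-labelled and untreated-labelled libraries missed the threshold (adjusted p = 0.067). Isg20, an exonuclease that degrades RNA, stood at 5.48, 6.07 and 6.71 CPM in the 3SL-labelled, 1.60, 1.15 and 1.15 CPM in the Pam3CSK4-labelled and 8.17, 8.25 and 5.83 CPM in the untreated-labelled libraries. It was 5.99-fold lower in the Pam3CSK4-labelled than in the untreated-labelled libraries, while the unadjusted 95% interval of its log2 difference between 3SL-labelled and untreated-labelled libraries ran over -0.65 to -0.01 (adjusted p = 0.223).

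The head-to-head pair Rsad2 and Cmpk2 had like differences between the 3SL-labelled and untreated-labelled libraries. Rsad2 (ENSMUSG00000020641, chr12:26442746-26456452) encodes viperin, which makes a chain-terminating nucleotide, and Cmpk2 (ENSMUSG00000020638, chr12:26469204-26479837) encodes the nucleotide kinase that supplies its substrate. Rsad2 stood at 316, 299.7 and 382 CPM in the 3SL-labelled, 41.3, 30.2 and 34.5 CPM in the Pam3CSK4-labelled and 393, 559 and 517 CPM in the untreated-labelled libraries. Cmpk2 stood at 145, 153 and 193 CPM in the 3SL-labelled, 29.8, 21.7 and 27.8 CPM in the Pam3CSK4-labelled and 202, 278 and 239 CPM in the untreated-labelled libraries. In both genes the 3 groups were apart, B2 was the highest library and D2 the lowest. For Rsad2 the log2 fold change was -3.81 ± 0.109 for Pam3CSK4-labelled over untreated-labelled, 3.25 ± 0.112 for 3SL-labelled over Pam3CSK4-labelled and -0.56 ± 0.0883 for 3SL-labelled over untreated-labelled libraries (edgeR adjusted p = 5.38e-22, 5.04e-20 and 7.13e-05). For Cmpk2 the same comparisons gave -3.21, 2.66 and -0.55. Samhd1, which breaks down the building blocks of DNA, changed less, at 402, 405 and 451 CPM in the 3SL-labelled, 203, 213 and 188 CPM in the Pam3CSK4-labelled and 464, 524 and 463 CPM in the untreated-labelled libraries, with a log2 difference of -0.21 between 3SL-labelled and untreated-labelled libraries (adjusted p = 0.00484).

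The genes whose products hold back virus particles differed among themselves. Ifitm3 (ENSMUSG00000025492, chr7:141009586-141010770), which blocks fusion of viruses in endosomes, was at 679, 709 and 728 CPM in the 3SL-labelled, 426, 429 and 396 CPM in the Pam3CSK4-labelled and 702, 741 and 679 CPM in the untreated-labelled libraries. The 3SL-labelled and untreated-labelled libraries overlapped, with a log2 difference of -0.01 whose 95% interval ran over -0.08 to 0.07 (edgeR adjusted p = 0.96), and its sign turned to 0.03 when scaled by library size alone or without B2, and to 0.02 without A2plus. It was nevertheless 1.70-fold lower in the Pam3CSK4-labelled than in the untreated-labelled libraries (adjusted p = 1.31e-16). Bst2, or tetherin, which ties budding particles to the cell surface, stood at 210.4, 225 and 244 CPM in the 3SL-labelled, 131, 132 and 125 CPM in the Pam3CSK4-labelled and 275, 288 and 253 CPM in the untreated-labelled libraries. No groups of Bst2 overlapped, and the log2 difference of the 3SL-labelled from the untreated-labelled libraries was -0.27 (adjusted p = 0.000298). The dynamin-like GTPases Mx1 and Mx2 had much larger differences on either side of the Pam3CSK4-labelled libraries. Mx1, of which C57BL/6 mice carry an allele that makes no functional protein, stood at 109.6, 114 and 134 CPM in the 3SL-labelled, 13.3, 11.8 and 12.6 CPM in the Pam3CSK4-labelled and 131, 176 and 165 CPM in the untreated-labelled libraries. Mx2 stood at 18.4, 27.1 and 33.04 CPM in the 3SL-labelled, 3.44, 2.87 and 2.83 CPM in the Pam3CSK4-labelled and 26.9, 39.99 and 34.8 CPM in the untreated-labelled libraries. Between 3SL-labelled and untreated-labelled libraries both had similar log2 differences, -0.40 and -0.37. Mx1 passed the edgeR test (adjusted p = 0.000611) and Mx2 did not (adjusted p = 0.0778, unadjusted 95% interval -0.64 to -0.10). Mx2 had fewer counts and also a wider relative spread in the 3SL-labelled libraries, at 26.2 ± 7.36 CPM against 119 ± 13.2 CPM for Mx1 (SD, n = 3 each). Which of these mattered was not tested.

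**Figure D3:**
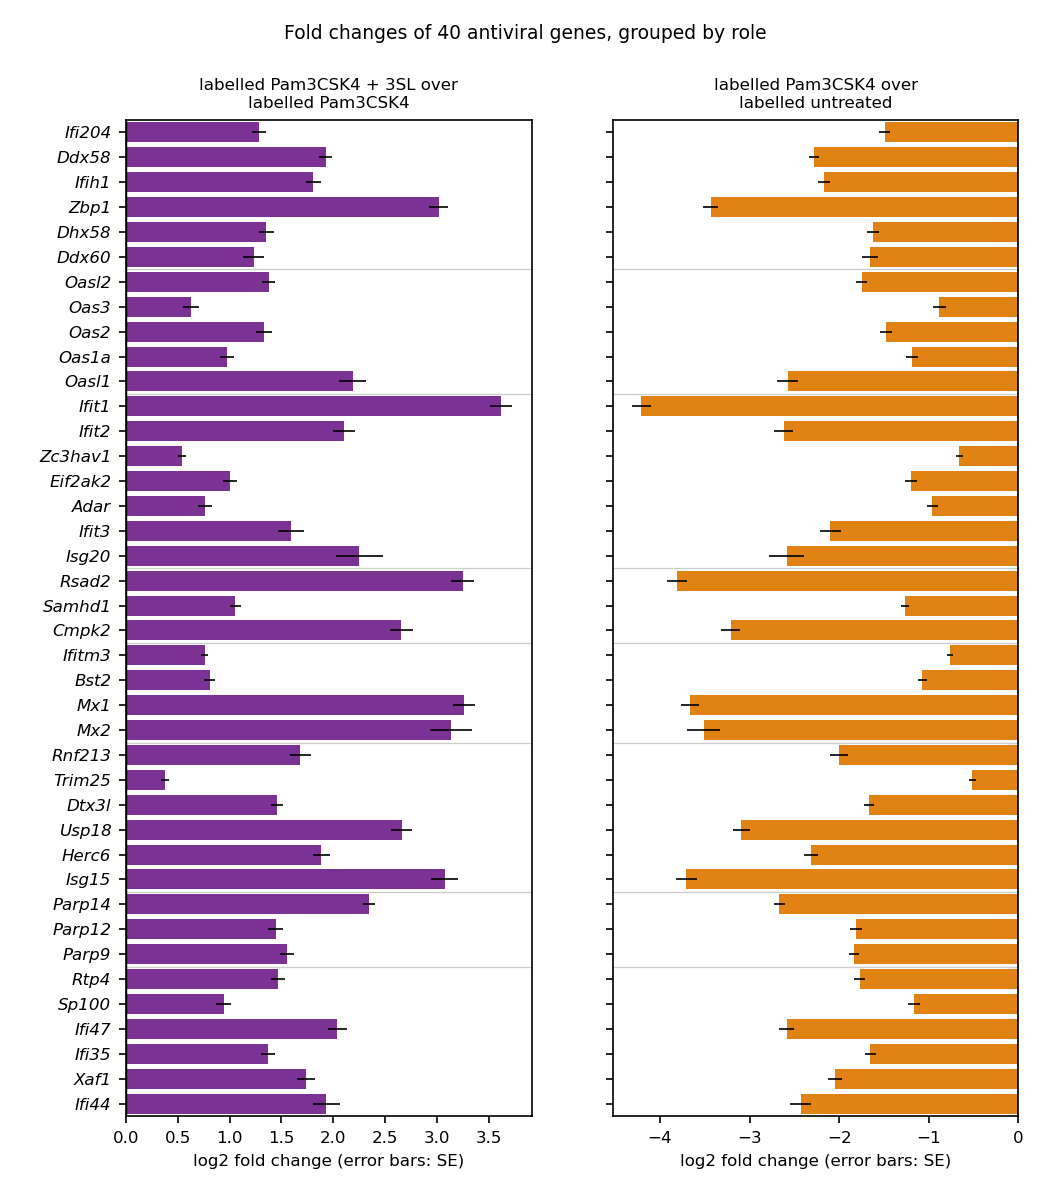
Log2 fold change of each of the 40 genes, by role, as bars with error bars of 1 SE. In the left panel, 3SL-labelled over Pam3CSK4-labelled libraries, every bar is above 0, and in the right panel, Pam3CSK4-labelled over untreated-labelled libraries, every bar is below 0, with Ifit1 farthest from 0 and Trim25 nearest to it in both.

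Isg15 (ENSMUSG00000035692, chr4:156199424-156200818), a ubiquitin-like protein that is joined to other proteins, had the largest difference of the 40 genes between 3SL-labelled and untreated-labelled libraries. It stood at 92.8, 106 and 127 CPM in the 3SL-labelled, 15.7, 13.7 and 9.40 CPM in the Pam3CSK4-labelled and 163, 193 and 142 CPM in the untreated-labelled libraries. Every 3SL-labelled library was below every untreated-labelled one, and the difference was 1.55-fold (log2 -0.63 ± 0.0917, edgeR adjusted p = 2.54e-05). The Pam3CSK4-labelled libraries were 13.1-fold below the untreated-labelled ones (adjusted p = 8.22e-21). Usp18, which removes ISG15 from proteins and dampens the interferon receptor, stood at 128, 132 and 165 CPM in the 3SL-labelled, 25.2, 21.9 and 20.6 CPM in the Pam3CSK4-labelled and 183, 219 and 165 CPM in the untreated-labelled libraries. Herc6, the main ligase that joins ISG15 to proteins in mice, stood at 114, 119 and 148 CPM in the 3SL-labelled, 34.7, 35.0 and 33.5 CPM in the Pam3CSK4-labelled and 166, 189.8 and 154 CPM in the untreated-labelled libraries. The modifier, its ligase and its protease thus moved the same way, and the last 2 had the same log2 difference, -0.43, between 3SL-labelled and untreated-labelled libraries (adjusted p = 0.00045 for Usp18 and 8.71e-05 for Herc6). Exons of Herc6 share 13.7% of their bases with Gm45193, a gene on the same strand that is not in the count table.

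Trim25 (ENSMUSG00000000275, chr11:88999376-89020293), a ubiquitin ligase that aids RIG-I, was the most level gene on either side of the Pam3CSK4-labelled libraries, at 205, 210.1 and 218 CPM in the 3SL-labelled, 161, 168 and 159 CPM in the Pam3CSK4-labelled and 228, 237 and 234 CPM in the untreated-labelled libraries. All 3 groups were still apart, with log2 fold changes of -0.52 ± 0.0376 for Pam3CSK4-labelled over untreated-labelled, 0.37 ± 0.0394 for 3SL-labelled over Pam3CSK4-labelled and -0.14 ± 0.0382 for 3SL-labelled over untreated-labelled libraries (edgeR adjusted p = 1.12e-12, 2.43e-09 and 0.0166). Rnf213, a giant ubiquitin ligase, stood at 682, 574 and 941 CPM in the 3SL-labelled, 215, 239 and 230.1 CPM in the Pam3CSK4-labelled and 867, 1034 and 828 CPM in the untreated-labelled libraries. C2plus reached the untreated-labelled range, and the difference of Rnf213 between 3SL-labelled and untreated-labelled libraries, -0.32, passed the test (adjusted p = 0.0381). Dtx3l, a ubiquitin ligase that forms a complex with PARP9, had a difference of -0.21 and its partner gene Parp9 one of -0.28 (adjusted p = 0.011 and 0.00107), with the caution that reads from their shared exons cannot be told apart.

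Parp14, which adds single ADP-ribose units to proteins, stood at 833, 785 and 965 CPM in the 3SL-labelled, 187, 169.5 and 152 CPM in the Pam3CSK4-labelled and 1049, 1114 and 1067 CPM in the untreated-labelled libraries. No groups overlapped, and it was 6.35-fold lower in the Pam3CSK4-labelled and 1.251-fold lower in the 3SL-labelled than in the untreated-labelled libraries (edgeR adjusted p = 1.75e-24 and 0.000155). Parp12, a related enzyme that restrains translation, had a log2 difference of -0.37 between 3SL-labelled and untreated-labelled libraries (adjusted p = 0.000162).

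The 6 genes outside these classes all passed the test in all 3 comparisons. Ifi47, a GTPase of the immunity-related family in mice, stood at 93.6, 105 and 125 CPM in the 3SL-labelled, 29.8, 25.2 and 24.6 CPM in the Pam3CSK4-labelled and 151, 176 and 143 CPM in the untreated-labelled libraries. Its log2 difference between 3SL-labelled and untreated-labelled libraries, -0.55 ± 0.0753, had one of the lowest adjusted p-values of the 40 genes (edgeR, 1.2e-05). Ifi44, a cytoplasmic protein induced by interferon, had a difference of -0.49 in that comparison (adjusted p = 0.0018). Xaf1, a binding partner of an apoptosis inhibitor, had one of -0.31 (adjusted p = 0.00549), and Rtp4, a receptor-transport protein, one of -0.30 (adjusted p = 0.000756). Ifi35, a partner of the protein Nmi, and Sp100, a component of nuclear bodies, had -0.28 and -0.23 (adjusted p = 0.00125 and 0.0288). Exons of Ifi35 share 16.8% of their bases with an antisense gene, and those of Ifi47 share 4.49% with Olfr56 on the same strand. Those of Rtp4 share 13.9% with Gm45338, also on the same strand and not in the count table.

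The comparison of 3SL-labelled and untreated-labelled libraries separated members that did and did not depend on single libraries. For 22 of the 40 genes every 3SL-labelled library lay below every untreated-labelled one, against 12.5% of all tested genes. C2plus reached the untreated-labelled range in 18 genes, B2plus in 3, which were Isg20, Mx2 and Ifitm3, and A2plus in 0. Counts of this kind were not made over all tested genes. Without B2 the count of genes called lower was 21 in place of 35, against 3.06% of all tested genes, and the median log2 fold change -0.23. Without C2plus the count was 38, against 5.12% of all tested genes, and the median -0.41. 18 genes were called lower in each of 16 alternatives by edgeR or DESeq2, which were all those run other than the minimum fold. The share of all tested genes called lower in every one of these alternatives was not computed. Those 18 were Ifih1, Ddx58, Ddx60, Zbp1, Oasl2, Ifit1, Rsad2, Cmpk2, Mx1, Bst2, Isg15, Herc6, Parp9, Parp12, Parp14, Ifi35, Ifi47 and Rtp4. The other 17 called genes lost the call in at least 1 of these alternatives, and some in several. The call was lost by 14 genes without B2, 11 without A2plus, 10 without B2plus and 10 under DESeq2. Ifit2, Ifit3 and Usp18 kept it without B2 and lost it under DESeq2. Against a null of a 1.5-fold change, edgeR's glmTreat called 0 of the 40, and it called 0.0262% of all tested genes lower. Of the 40, 0 had an unadjusted p under 0.05 in that test.

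**Figure D4:**
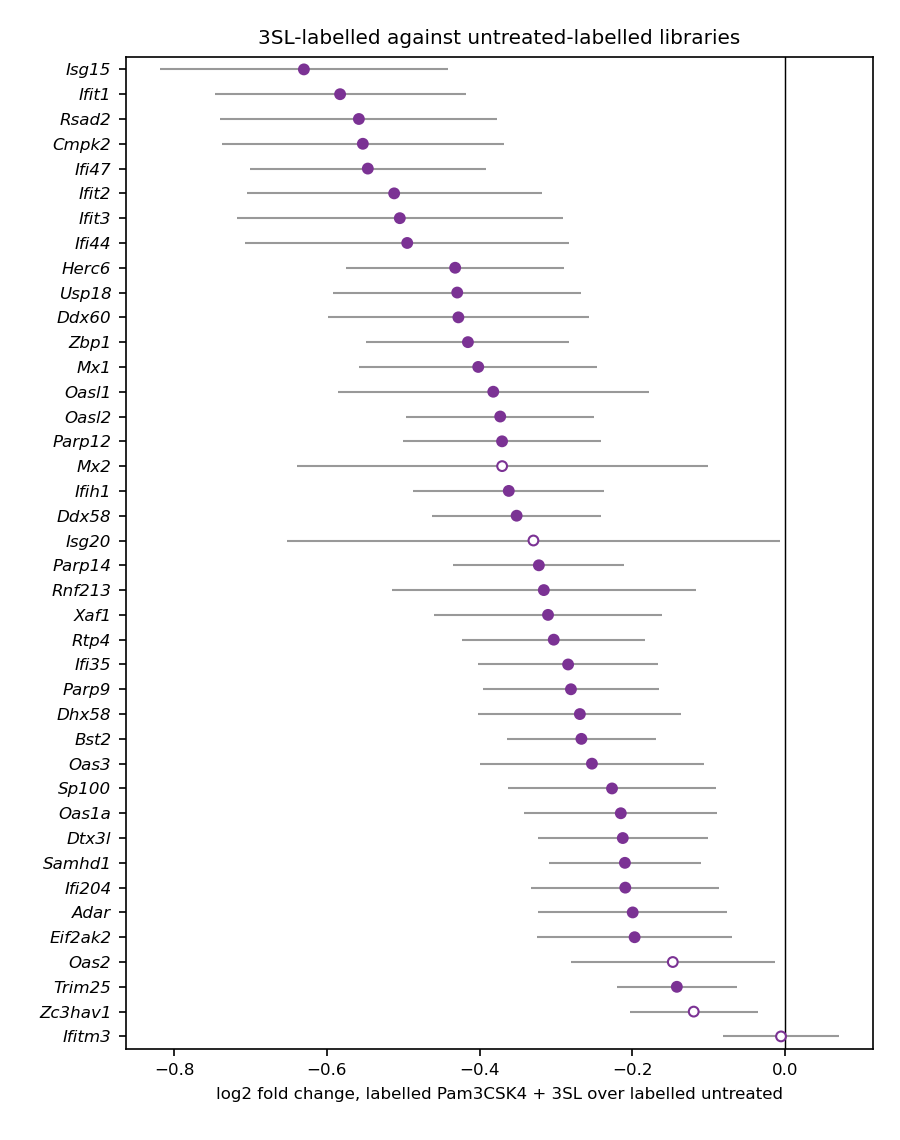
Log2 fold change of each of the 40 genes for 3SL-labelled over untreated-labelled libraries, ordered by size, with unadjusted 95% intervals as lines. Filled points are the 35 genes called by edgeR and open points the other 5. Isg15 at -0.63 lies farthest below 0, Ifitm3 lies at -0.01, and all 40 estimates are below 0 in this scaling.

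Within the groups the 40 genes varied as a block. B2 had the highest level of the untreated-labelled libraries in 40 of 40 genes, against 33.2% of all tested genes, and C2plus the highest of the 3SL-labelled libraries in 40 of 40, against 33.1%. In the Pam3CSK4-labelled group D1 was highest in 25 genes, D2 in 14 and D3 in 1. Summed over the 40 genes, the libraries A2plus, B2plus and C2plus held 7593, 7487 and 9103 CPM, D1, D2 and D3 held 3022, 2952 and 2760 CPM, and A2, B2 and C2 held 9461, 10930 and 9546 CPM. The sum of C2plus was thus nearer to A2 than to the other 3SL-labelled libraries. B2 was also the deepest library. Thinned to the depth of the smallest library, the counts gave 33 genes called lower in the 3SL-labelled than in the untreated-labelled libraries, against 4.31% of all tested genes. The median log2 fold change of the 40 genes stayed at -0.33. Random thinning keeps the expected CPM of each gene, so this median cannot show whether the depth of B2 mattered. Siglech, a marker of plasmacytoid dendritic cells, which secrete interferon, was also lower in the 3SL-labelled than in the untreated-labelled libraries, at 0.562, 0.881 and 1.02 CPM against 2.22, 1.79 and 1.80 CPM, with 0.400, 0.517 and 0.917 CPM in the Pam3CSK4-labelled ones. These levels came from few counts, 4, 9 and 10 in the 3SL-labelled, 35, 72 and 17 in the untreated-labelled and 5, 9 and 12 in the Pam3CSK4-labelled libraries. The log2 fold change of Siglech for 3SL-labelled over untreated-labelled was -1.17 (edgeR adjusted p = 0.0302). It was the 1 called of the 4 tested markers of that cell type, and Ccr9, Pacsin1 and Tcf4 had log2 fold changes of 0.11, 0.24 and -0.07 and were not called. The 7 markers of that cell type summed to 77.8 to 79.6 CPM in the 3SL-labelled, 68.4 to 69.8 CPM in the Pam3CSK4-labelled and 82.3 to 86.5 CPM in the untreated-labelled libraries, mostly Tcf4, and Klk1 was at 0 counts in all 9 libraries. Some markers of other cell types were also lower in that comparison: S100a8 and S100a9, of neutrophils, had log2 fold changes of -0.27 and -0.35, and Pdgfrb, of stromal cells, had -0.55 (edgeR adjusted p = 0.00249, 0.000622 and 0.0204). The other 3 of the 5 tested neutrophil markers, Elane, Mpo and Camp, were not called, and Pdgfrb was the 1 tested stromal marker. Mpo went the other way, at 22.1, 19.9 and 22.2 CPM in the 3SL-labelled against 19.8, 18.6 and 18.3 CPM in the untreated-labelled libraries. Elane overlapped between these groups, and Camp was lower. In the Pam3CSK4-labelled libraries Elane and Mpo were higher than in the untreated-labelled ones (log2 1.13 and 1.08), and the other 3 were lower. The 6 neutrophil markers summed to 369 to 407 CPM in the 3SL-labelled, 266 to 339 CPM in the Pam3CSK4-labelled and 456 to 490 CPM in the untreated-labelled libraries, mostly S100a8 and S100a9. The 4 stromal markers summed to 7.17 to 9.30 CPM, 1.32 to 2.32 CPM and 11.2 to 12.3 CPM in the same order of groups. In the 3SL-labelled and untreated-labelled libraries the sum was mostly Pdgfrb. Col1a1, Col1a2 and Lum were too low to be tested, at means of 0.658, 0.625 and 0.387 CPM in the 3SL-labelled libraries. In the untreated-labelled libraries these 3 averaged 0.572, 0.658 and 0.190 CPM, so Lum went the other way. None of the 6 neutrophil and 4 stromal markers was at 0 in every library, but some had few counts. Ly6g, of neutrophils, had 0, 0 and 2 counts in the 3SL-labelled, 3, 3 and 5 in the Pam3CSK4-labelled and 1, 3 and 1 in the untreated-labelled libraries. Those were too few to pass the filter, and Lum had 0 counts in D1, D2 and D3. Their part in the result was not tested.

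**Figure D5:**
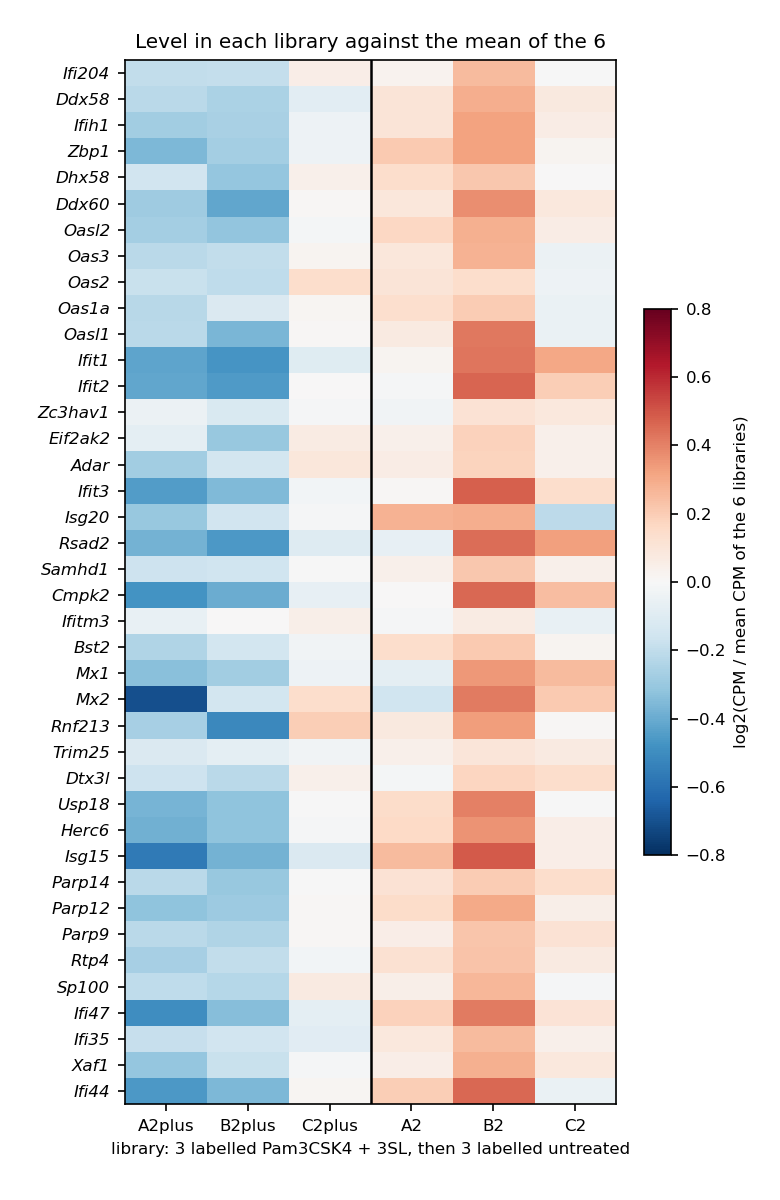
Log2 of the CPM of each of the 40 genes in the 3SL-labelled and the untreated-labelled libraries over the mean of these 6 libraries, as colour, with 1 row per gene and 1 column per library. In every row B2 is the highest of the untreated-labelled libraries and C2plus the highest of the 3SL-labelled ones.

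Per kilobase of exon, which allows levels of different genes to be set side by side, Ifitm3 was the highest of the 40 genes in all 3 groups, at 1040 CPM per kilobase in the 3SL-labelled, 615 in the Pam3CSK4-labelled and 1043 in the untreated-labelled libraries. Bst2 followed in each group, at 251, 144 and 301 CPM per kilobase, in the same order of groups. Isg20 was the lowest in each, at 3.27, 0.698 and 3.99 CPM per kilobase. The order between them changed with the group: Isg15 was the third highest in the 3SL-labelled and untreated-labelled libraries and ranked 11 in the Pam3CSK4-labelled ones, and Ifit1 ranked 4, 28 and 4 in the 3SL-labelled, Pam3CSK4-labelled and untreated-labelled libraries.

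The genes that lie upstream of the 40 were read from a list of interferons, their receptors and signalling parts. Of 34 listed genes, 18 had no count in any library, all of them interferon genes, and 14 were tested. Ifnb1, the interferon-beta gene, had 0, 3 and 2 counts in the 3SL-labelled, 0, 0 and 1 in the Pam3CSK4-labelled and 4, 14 and 4 in the untreated-labelled libraries, too few to pass the filter. All 14 tested genes were lower in the Pam3CSK4-labelled than in the untreated-labelled libraries, against 35.9% of all tested genes, and all 14 were higher in 3SL-labelled than in Pam3CSK4-labelled libraries, against 34.7%. Between 3SL-labelled and untreated-labelled libraries 5 of the 14 were lower, against 5.11% of all tested genes, and none was higher, against 3.83%. Among those lower, Irf1 and Irf7, which switch on interferon and antiviral genes, had log2 differences of -0.21 and -0.23, and Socs1, an inhibitor of the pathway's kinases, had -0.30 (edgeR adjusted p = 0.00379, 0.02 and 0.0367, in the order given). Ifnar1, a receptor chain, had 0.01 (adjusted p = 0.914) and Irf9, the DNA-binding part of the complex that acts on the response element, had -0.11 (adjusted p = 0.187), and neither was called.

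Among 12 receptors and adaptors of nucleic acid sensing, 3 were lower in 3SL-labelled than in untreated-labelled libraries, against 5.11% of all tested genes, and none was higher. These were Tlr7, a receptor for single-stranded RNA, at -0.40, Tlr3, a receptor for RNA duplexes, at -0.35, and Ticam2, an adaptor of the receptor TLR4, at -0.24 on the log2 scale (edgeR adjusted p = 3.19e-07, 0.0117 and 0.0197). In the Pam3CSK4-labelled libraries 4 of the 12 were higher than in the untreated-labelled ones and 7 lower, against 39% and 35.9% of all tested genes. The 4 were Mavs, Tmem173, Mb21d1 and Tlr9, which encode the adaptors MAVS and STING and the DNA sensors cGAS and TLR9, at 0.23, 0.84, 0.53 and 0.88 on the log2 scale. In the 3SL-labelled libraries 7 were higher and 4 lower than in the Pam3CSK4-labelled ones, against 34.7% and 36.8%. Of 43 tested interferon-stimulated genes outside the 40, 26 were lower in 3SL-labelled than in untreated-labelled libraries and 0 were higher, against 5.11% and 3.83% of all tested genes. In the Pam3CSK4-labelled libraries 38 of the 43 were lower and 2 higher than in the untreated-labelled ones, against 35.9% and 39%. In the 3SL-labelled libraries 38 were higher and 1 lower than in the Pam3CSK4-labelled ones, against 34.7% and 36.8%. B2 was the highest untreated-labelled library in 36 of the 43 and C2plus the highest 3SL-labelled one in 37. Cxcl10, a chemokine that draws T cells, had log2 fold changes of -6.90 for Pam3CSK4-labelled over untreated-labelled, 6.32 for 3SL-labelled over Pam3CSK4-labelled and -0.58 for 3SL-labelled over untreated-labelled libraries.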

How the data were processed

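Total RNA of bone marrow-derived macrophages was extracted with Trizol and sequenced from NEBNext Ultra libraries, per the labels' protocols. The values were raw counts per gene in a table deposited by the authors for the whole series, and 15 further columns of that table were not used here. The aligner HISAT2 2.1.0 and the counting tools featureCounts and Subread appear, per the submitters' processing notes, beside the build hg38, although all gene identifiers are mouse ones. The build, annotation and strand setting behind the counts are not given in the sources used here, so reads of overlapping genes on opposite strands cannot be told apart.

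The 40 genes, their roles, the lists of other pathway genes and markers, and the tests were chosen with earlier results of these data known, and all 40 genes are named. Counts of 9 libraries, grouped by their descriptions, were fitted together in edgeR 4.0.16 under R 4.3.3, with filterByExpr, TMM factors, a mean per group and no block. Quasi-likelihood tests were adjusted over 11469 genes by the Benjamini-Hochberg method at a threshold of 0.05. CPM are counts per 1000000 of the TMM-scaled library size. The common dispersion gave a biological coefficient of variation of 0.0365. Total counts were 7472482 to 43980309 per library, and floors of 3 counts cover counting error only. Same-group libraries differed beyond sampling noise (chi-square per degree of freedom 1.83 to 2.91), so none was merged. The scripts were tested on simulated data. Alternatives were other scalings, no filter, DESeq2 1.42.0, a null of 1.5-fold, each library left out, only the groups compared, a block by code letter and, added after seeing the data, thinning to the smallest library. Gene positions and exon lengths came from GENCODE M21, and promoter windows from RefSeq on GRCm38.p6. No amino acid sequences are shown. Values of some listed pathway genes are not reported here.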

Additional observations from a re-analysis of the deposited data

How the results depend on the processing

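All 40 genes were called lower in the Pam3CSK4-labelled than in the untreated-labelled libraries, and higher in 3SL-labelled than in Pam3CSK4-labelled libraries, under every alternative except a null of 1.5-fold. That null kept 39 and 37 of them, where 1658 of all 11469 tested genes were called lower and 1579 higher, in the same order. Trim25 missed that threshold in both comparisons, and Oas3 and Zc3hav1 in the comparison of 3SL-labelled with Pam3CSK4-labelled libraries. The block by code letter held terms for B and C only, so D was treated like A and nothing particular to D was adjusted for. The 40 genes had medians of -1.82 and 1.44 in that fit. Scaling by library size alone moved the median log2 fold change of all genes by 0.31 for Pam3CSK4-labelled over untreated-labelled and by -0.27 for 3SL-labelled over Pam3CSK4-labelled libraries. The 40 genes then had medians of -1.60 and 1.30, still 40 lower and 40 higher. All tested genes then split into 6882 higher and 2380 lower for the first comparison, against 4474 and 4123 with TMM factors, into 2434 and 6393 for the other, against 3978 and 4226, and into 788 and 406 for 3SL-labelled over untreated-labelled libraries, against 439 and 586.

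The count of genes called lower in the 3SL-labelled than in the untreated-labelled libraries was 35, against 5.11% of all tested genes. In brackets is the share of all tested genes called lower in the same setting. The count was 35 with DESeq2 size factors (5.69%), 28 with library size only (3.54%), 38 with no filter (4.49%) and 35 with only the groups compared (5.01%). It was 33 after thinning (4.31%) and 0 against a null of 1.5-fold (0.0262%). The DESeq2 test gave 25, against 496 of all 11469 tested genes. Leaving out each library in turn gave 21 to 38, with 21 without B2 (3.06%), 24 without A2plus (3.24%), 25 without B2plus (4.36%) and 38 without C2plus (5.12%). The cause was not tested. None was called higher under any of these settings, and the median log2 fold change ran between -0.41 and -0.23. Ifitm3 was not called in any setting, so its turned sign is no reversal of a call. Whether libraries that share a code letter were paired is not stated. Deviations of A2plus with A2, B2plus with B2 and C2plus with C2 from their group means correlated across 11469 genes at -0.0167, 0.0424 and 0.00797. Those of libraries with unlike letters correlated at -0.0327 to 0.0227. Such correlations in groups of 3 cannot show whether the libraries were paired. With the letter as a replicate block the count of genes called lower was 37, against 5.48% of all tested genes. Mx2 and Isg20 had the widest intervals of the 40 genes in the comparison of 3SL-labelled with untreated-labelled libraries.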

Other observations

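Among 43 tested interferon-stimulated genes outside the 40, a few did not follow them. Slfn9, of the Schlafen family, had log2 fold changes of 1.74 for Pam3CSK4-labelled over untreated-labelled, -2.14 for 3SL-labelled over Pam3CSK4-labelled and -0.40 for 3SL-labelled over untreated-labelled libraries (edgeR adjusted p = 7.57e-20, 2.87e-20 and 0.00107). Its relatives Slfn5 and Slfn8 had -2.26 and -2.21 for Pam3CSK4-labelled over untreated-labelled libraries. Ifi27l2a, a small gene induced by interferon, was called in none of the 3 comparisons, with -0.03 for Pam3CSK4-labelled over untreated-labelled libraries (adjusted p = 0.532). Tlr7, from the list of sensing receptors and adaptors, was not called between Pam3CSK4-labelled and untreated-labelled libraries (log2 0.03, adjusted p = 0.471) and was lower in the 3SL-labelled than in either other group (log2 -0.43 against the Pam3CSK4-labelled and -0.40 against the untreated-labelled libraries, adjusted p = 1.32e-09 and 3.19e-07). These genes were singled out after their values were seen.

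The 12 members with a core of the response element in a promoter window had a median log2 fold change of -0.36 for 3SL-labelled over untreated-labelled libraries, and the 18 members whose windows held none had -0.32. For Pam3CSK4-labelled over untreated-labelled libraries the medians were -1.88 and -1.91. The 9 members with a gamma-activated sequence had medians of -0.22 for 3SL-labelled over untreated-labelled and -1.20 for Pam3CSK4-labelled over untreated-labelled libraries, and the 21 without one had -0.37 and -2.10. For the κB motif the medians were -0.29 and -1.54 in the 8 members with a match and -0.37 and -1.93 in the 22 without. These medians are a description, and no test of the differences was made.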
